A study of Rattus norvegicus with 12 samples.

Results

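The Rat LncRNA Array v3.0 carries, beside its LncRNA and mRNA probes, a small set of Agilent catalogue probes that are each printed as 10 spots. All probes that are not controls and whose name begins with A_ were taken, which gave 50 probes among the 38804 probes that are not controls, or 500 spots on each array. The label of the set held in the data, since every one of the 50 probes had 10 spots. The RefSeq accession given for the probe was matched to a current rat gene for 30 of them, of which 29 were protein coding and 1 was an LncRNA (LOC108352165). A further 18 probes carried an accession that was not matched, and 2 carried their own name only, and these are called by their probe names.

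The arrays measured retinal RNA of 12 male Wistar rats, 4 in each of 3 groups. Diabetes was induced with streptozotocin, a toxin of the insulin-producing beta cells, in both diabetic groups. The Diab group stayed in poor glycemic control for 8 months, the Rev group was kept in poor control for 4 months and then in good control for another 4 months, and the Norm group held normal rats of the same age. Good control in the Rev group was kept with daily insulin. Chemically induced diabetes lacks insulin from beta cell loss and is a model of that form of the disease, and RNA of the whole retina mixes neurons, glia and vessels, so that fewer cells of a type and less RNA per cell cannot be told apart.

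In diabetes the retinal capillaries degenerate slowly, and damage may go on after glucose has been brought down, which has been called metabolic memory. The retina is also neural tissue with an unusually high conversion of glucose to lactate. Among the 30 matched genes are some with a known place in such tissue. They include Ldha (a subunit of lactate dehydrogenase), Pdk3 (a kinase that restrains the oxidation of pyruvate in mitochondria) and Dlg4 (a scaffold of the postsynaptic membrane). Map2 (a microtubule protein of dendrites), Nlrp3 (the sensor of an inflammasome) and the growth factors Fgf2 and Gdnf are others. Repeated spots on an array show how well a single spot measures a transcript, apart from the difference between rats. None of the 53 genes in 11 marker lists of retinal cell types, and none of 10 housekeeping genes, was among the 30, and 0 of the other 38754 probes could be matched to a gene, so the tissue on the label was not checked with its markers here.

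Sequences of the probes themselves were not used here. To show where transcripts start, the 250 bases before a transcript start (RefSeq, GRCr8) are given for a pair of genes: Napepld, the matched gene that came next to P2rx2 by unadjusted p in the comparison of Diab with Norm, and Ldha, which was among the genes with the smallest difference in it. The Napepld stretch lies at chr4:14253010-14253259 (plus strand), inside the bounds that RefSeq gives for the gene (chr4:14251591-14291010), so that it precedes a start downstream of the outermost one. The Ldha stretch lies at chr1:106507842-106508091 (plus strand), directly before the gene (chr1:106508092-106517512). Capitals mark the GC box (GGGCGG), the CCAAT box (CCAAT), the core of the hypoxia response element (ACGTG) and the TATA box (TATAAA), each searched on both strands.
Napepld: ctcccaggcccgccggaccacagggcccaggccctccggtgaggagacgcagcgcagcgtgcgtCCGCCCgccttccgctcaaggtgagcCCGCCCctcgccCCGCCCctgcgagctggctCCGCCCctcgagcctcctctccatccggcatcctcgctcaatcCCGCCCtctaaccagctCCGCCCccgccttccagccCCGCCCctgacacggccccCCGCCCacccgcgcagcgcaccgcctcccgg
Ldha: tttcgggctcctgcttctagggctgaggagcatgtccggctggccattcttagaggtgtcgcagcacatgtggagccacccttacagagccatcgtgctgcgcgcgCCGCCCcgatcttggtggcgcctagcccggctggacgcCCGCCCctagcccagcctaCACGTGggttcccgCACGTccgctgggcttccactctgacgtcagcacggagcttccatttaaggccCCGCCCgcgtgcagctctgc
The Napepld stretch held 8 GC boxes, all read from the opposite strand, and none of the other motifs. The Ldha stretch held 3 GC boxes and 3 hypoxia element cores, with a core on each strand of the palindrome CACGTG counted separately. Over the 33469 promoter stretches of the same length, 30.5% held a GC box, 34.0% a CCAAT box, 16.6% a hypoxia element core and 12.9% a TATA box. The promoter table held no entry for P2rx2 or Eif4b.

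Values are given as normalized log2 signal, which is the mean of log2 processed signal over the unflagged spots of a probe after quantile normalization over all 12 arrays, and fold changes as log2 differences with their standard error from limma. A level serves to compare the same probe between arrays and not one probe with another. The arrays differed in brightness, with a median signal of 58.0 to 222 in Norm, 283 to 383 in Diab and 134 to 350 in Rev. Each group lay on a slide of its own, so slide and group cannot be told apart in any comparison with Norm or between Diab and Rev. Each array held the RNA of 1 rat, so p-values rest on the spread between 4 rats per group together with the error of their arrays.

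One array stood apart, for these probes and over the whole array. On Rev 3, 43 of the 49 tested probes lay below the mean of their group and 39 were the lowest of the 4 Rev arrays, against 1 to 6 on the other 3 Rev arrays. The matching counts over all tested probes were not made. The root mean square deviation of the 49 probes from their group mean was 0.957 on Rev 3 and 0.260 to 0.441 on the other 11 arrays, and the median deviation was -0.66 on Rev 3 and -0.070 to 0.288 on the others. Over all tested probes the root mean square deviation was 0.633 on Rev 3 and 0.243 to 0.384 on the other 11 arrays, so Rev 3 stood apart there too. Trim2, a ubiquitin ligase of neurons, read 11.58, 11.61 and 11.67 on the other Rev arrays and 9.38 on Rev 3. LOC108352165 read 8.24, 8.22 and 8.24 on those arrays and 5.74 on Rev 3. A probe without a matched gene, A_44_P914086, went the other way, with 6.71 on Rev 3 and 3.49 to 3.87 on the others. Rev 3 was also the dimmest Rev array, with a median signal of 134, and the part of brightness in this was not tested.

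Of the 50 probes, 44 were well above background on all 12 arrays. Lhcgr, the receptor of luteinizing hormone and chorionic gonadotropin, was well above background on 1 array only (Diab 4) and was not tested, which left 49 probes. Nlrp3 and Gdnf cleared the background on all Diab and Rev arrays but on 2 Norm arrays each. A_44_P773212 was not well above background on the Norm arrays, and was so on 3 Diab arrays and 1 Rev array. Its means were 1.87 in Norm, 2.41 in Diab and 2.30 in Rev, and no fold is given for it because the Diab mean lay below the lowest signal well above background on the Norm arrays.

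The comparison of Diab with Norm asks what 8 months of poor control did to these transcripts. After Benjamini-Hochberg adjustment over all 37467 tested probes, 2 of the 49 probes passed an adjusted p of 0.05 in limma, while 7.07% of all tested probes did (4.05% higher and 3.02% lower in Diab). A_44_P913360, a probe named by its own ID only, was higher in Diab, and P2rx2, a subunit of the ion channel that opens on extracellular ATP, was lower. None of the 49 reached a fold change of 2 with an unadjusted p under 0.05 in limma, which 4.89% of all tested probes met. The study states the same cutoffs, but its calls came from its own processing and are not compared here. At an unadjusted p under 0.05, 10 of the 49 probes passed, 7 higher and 3 lower in Diab, against 27.2% of all tested probes (13% higher and 14.2% lower). The 4 Diab values did not overlap with the 4 Norm values for 9 of the 49, against 24.2% of all probes. Over the 49 probes, 29 had a higher mean in Diab, and the median log2 difference was 0.14, against -0.037 over all tested probes. This direction turned with the brightness of the array as a covariate, to a median of -0.29, and with scaling to the 75th percentile the medians were 0.13 for these probes and 0.14 for all. Median signals did not overlap between Norm (58.0 to 222) and Diab (283 to 383), so brightness and group were largely confounded. Diab differences with this covariate, here and below, therefore rest on extrapolation.

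A_44_P913360 read 9.48, 9.29, 9.32 and 9.15 on the 4 Norm arrays and 10.19, 10.11, 10.30 and 10.31 on the 4 Diab arrays. It read 10.20, 10.08, 9.47 and 10.14 on the Rev arrays. All Diab values lay above all Norm values, and Rev 3 alone among the Rev arrays lay within the Norm range. The Diab difference was 0.92 ± 0.17 (SE, n = 4 per group, adjusted p = 0.0120), a 1.89-fold higher level. The Rev difference was 0.66 ± 0.17 (adjusted p = 0.104), and without Rev 3 it was 0.83 ± 0.11 (adjusted p = 0.00862). The call for Diab was kept in 24 of 25 other settings of the processing, and was lost with the brightness of the array as a covariate (log2 difference 0.62, adjusted p = 0.134).

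P2rx2 read 6.65, 6.46, 6.84 and 7.18 on the Norm arrays, 6.42, 6.07, 5.51 and 5.83 on the Diab arrays and 6.23, 6.22, 5.88 and 6.44 on the Rev arrays. All Diab and all Rev values lay below the Norm values, though by a small margin between 6.46 and 6.42 or 6.44. The Diab difference was -0.82 ± 0.22 (SE, n = 4 per group, adjusted p = 0.0412), and the Rev difference was -0.59 ± 0.22 (adjusted p = 0.240). The call was kept in 11 of 25 other settings, over which the difference ranged from -0.98 to -0.47. It was lost with scaling to the 75th percentile (-0.48, adjusted p = 0.142), with normexp, with one spot per probe, with the brightness covariate, without the 3 dimmest arrays, and when Norm 1, Norm 3, Norm 4, Diab 2, Diab 3, Diab 4, Rev 1, Rev 2 or Rev 4 was left out (adjusted p = 0.0511 to 0.117).

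Napepld, the phospholipase that makes N-acylethanolamines, read 7.93, 7.93, 7.68 and 7.91 on the Norm arrays, 7.15, 7.46, 6.91 and 7.19 on the Diab arrays and 7.28, 7.69, 6.77 and 7.29 on the Rev arrays. The Diab and Norm values did not overlap. Its log2 difference of -0.68 ± 0.19 missed the threshold (adjusted p = 0.0516), and without Rev 3, which enters the shared estimate of the spread, it passed (-0.69, adjusted p = 0.0102). Over the 12 arrays the pattern of Napepld was the most like that of P2rx2 among the 49 probes (Pearson r = 0.762), a description that holds the group differences in it. The pattern most like that of A_44_P913360 was Eif4b (Pearson r = 0.843).

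Eif4b, a helper of the helicase that opens mRNA for translation, read 9.55, 9.11, 9.60 and 9.77 on the Norm arrays and 10.08, 10.01, 10.03 and 10.19 on the Diab arrays. On the Rev arrays it read 10.12, 10.11, 9.66 and 9.96, so that Rev 3 again lay within the Norm range. The Diab difference of 0.57 ± 0.17 had an adjusted p of 0.0580, and 0.0176 without Rev 3. Map2 read 9.33, 9.44, 9.09 and 9.31 in Norm, 9.70, 10.43, 9.86 and 9.81 in Diab, and 9.78, 10.33, 9.17 and 9.50 in Rev. Its Diab values lay above all Norm values, with a difference of 0.66 ± 0.24 (adjusted p = 0.102, and 0.0395 without Rev 3). With the brightness of the array as a covariate, the difference of Map2 was 0.21.

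Among the other probes with the smallest unadjusted p, Nlrp3 read 3.56, 3.67, 3.66 and 3.30 in Norm, 3.89, 3.71, 4.16 and 3.90 in Diab and 3.98, 3.71, 3.47 and 3.87 in Rev. These values did not overlap between Norm and Diab, but 2 of the Norm arrays were not well above background (difference 0.37 ± 0.16, adjusted p = 0.160). The value depended on the scaling, from 0.073 with normexp to 1.01 with the 75th percentile, where it passed (adjusted p = 0.00239). Ptk2b, a tyrosine kinase activated by calcium, read 6.43 to 6.63 in Norm, 6.72 to 6.91 in Diab and 6.23 to 6.74 in Rev. Its Diab difference was 0.32 ± 0.15 (adjusted p = 0.181), and with the 75th percentile it was 0.64 and passed (adjusted p = 0.0164). Odf2l, a protein of the centrosome and cilium, read 8.57 to 9.12 in Norm, 9.28 to 9.90 in Diab and 8.69 to 9.94 in Rev. Its Diab difference was 0.57 ± 0.25 (adjusted p = 0.157), and 0.096 with the brightness covariate. Cyp2e1, a cytochrome that oxidizes ethanol and ketones, overlapped between the groups, with 4.26 to 4.83 in Norm, 4.53 to 5.12 in Diab and 4.35 to 5.20 in Rev. Its Diab difference of 0.42 ± 0.21 (adjusted p = 0.217) was 0.12 with normexp and 0.95 with the 75th percentile, where it passed (adjusted p = 0.0176). Of the probes with no matched gene, A_44_P959510 read 3.77 to 4.06 in Norm, 4.10 to 4.55 in Diab and 4.10 to 4.52 in Rev, with 2 Norm arrays not well above background. Its Diab difference of 0.38 ± 0.15 (adjusted p = 0.132) likewise ran from 0.081 with normexp to 0.97 with the 75th percentile, where it passed (adjusted p = 0.00330). A_44_P251706 read 7.19 to 8.08 in Norm, 6.80 to 7.56 in Diab and 6.69 to 7.58 in Rev. Its Diab difference of -0.58 ± 0.26 (adjusted p = 0.167) was -1.08 with the brightness covariate, and it passed without the 3 dimmest arrays (-0.80, adjusted p = 0.0477). Those are Norm 3, Norm 4 and Rev 3, so only Norm 1 and Norm 2 then stood for Norm. Norm 4 (7.19) held the only Norm value within the Diab range.

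The matched genes were then read by their known roles. Among 6 genes of neuronal signalling, P2rx2 passed the adjusted p and the others did not. Dlg4 gave a Diab difference of -0.0058 ± 0.21, Ppp2r2b (a regulatory subunit of a serine/threonine phosphatase) 0.058 ± 0.40 and Cdh2 (N-cadherin, an adhesion molecule of neural tissue) 0.47 ± 0.30. The 95% interval of Dlg4 ran from -0.47 to 0.46, so that a change within this range was not detectable with 4 rats per group.

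None of the 8 metabolic genes passed. Ldha read 13.23, 13.14, 13.54 and 13.71 in Norm, 13.37, 13.57, 13.15 and 13.55 in Diab and 13.41, 13.45, 12.56 and 13.29 in Rev, and its Norm and Diab ranges overlapped almost wholly. Its Diab difference was 0.0058 ± 0.21 (95% interval -0.46 to 0.47). Pdk3 gave -0.049 ± 0.23, Slc28a2 (a nucleoside transporter) -0.22 ± 0.23, Enpp1 (an enzyme that cleaves extracellular nucleotides) 0.25 ± 0.35, Pld1 (a phospholipase) 0.15 ± 0.46 and Nat1 (an N-acetyltransferase) 0.48 ± 0.49. The median over the 8 genes was 0.078 for Diab against Norm.

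Of 3 growth factor and hormone receptor genes, Fgf2 and Gdnf were tested. Fgf2 had one of the widest spreads of all, with 9.52, 9.28, 9.38 and 9.89 in Norm, 8.93, 9.05, 11.82 and 10.44 in Diab and 8.89 to 10.11 in Rev. A pair of Diab rats lay below all Norm rats and the other pair above them, and the mean difference was 0.54 ± 0.53 (adjusted p = 0.526). Gdnf differed by -0.083 ± 0.25.

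Among 6 genes of RNA and protein handling, none passed. Beside Eif4b, the differences were 0.31 ± 0.26 for Magoh (a core protein of the exon junction complex), -0.34 ± 0.18 for Pop7 (a subunit of ribonuclease P), 0.57 ± 0.34 for Mex3c (an RNA-binding ubiquitin ligase), -0.0091 ± 0.15 for Med16 (a Mediator subunit) and -0.095 ± 0.32 for Cse1l (the exporter of importin alpha). Med16 had the narrowest interval of these, from -0.33 to 0.31. The 3 ubiquitin genes gave -0.061 ± 0.21 for Ndfip1, -0.10 ± 0.39 for Ndfip2, both adaptors of Nedd4-family ligases, and -0.21 ± 0.43 for Trim2. Pdcd10, a gene of cerebral cavernous malformations, gave 0.28 ± 0.27, and LOC108352165 gave -0.55 ± 0.46. Without Rev 3 the spread of LOC108352165 shrank and its difference passed (-0.56 ± 0.17, adjusted p = 0.0394).

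The 20 probes without a matched gene were all tested. Their Diab differences ran from -0.63 ± 0.43 for A_44_P199597 to the 0.92 of A_44_P913360, which alone of them passed the adjusted p. A_44_P199597 read 9.10, 8.35, 8.72 and 8.83 in Norm, 8.52, 7.84, 8.68 and 7.42 in Diab and 8.62, 8.40, 6.65 and 8.85 in Rev, and its groups overlapped.

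The comparison of Rev with Norm asks what remained after 4 months of good control. None of the 49 probes passed an adjusted p of 0.05, which 0.673% of all tested probes did, and 5 passed an unadjusted p of 0.05, against 14.4% of all. None met the 2-fold criterion, which 1.7% of all tested probes met. The groups did not overlap for 2 probes, P2rx2 and A_44_P959510, against 8.36% of all. The 5 probes were A_44_P913360, Napepld (-0.60 ± 0.19), Eif4b (0.46 ± 0.17), P2rx2 and A_44_P959510 (0.33 ± 0.15). Both comparisons share the Norm arrays, so these values are not independent of the Diab differences. Without Rev 3, 2 probes passed, A_44_P913360 and Eif4b (0.56 ± 0.15, adjusted p = 0.0431), against 9.94% of all tested probes. Several Rev differences of matched genes moved when that array was left out. Ldha differed from Norm by -0.23 ± 0.21 with Rev 3 and by -0.021 ± 0.16 without it. Trim2 differed by -0.49 ± 0.43 with it and by 0.072 ± 0.20 without it, and Ndfip2 by -0.27 ± 0.39 and 0.22 ± 0.22, so that the sign turned for both, though none of these values passed the test.

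No probe passed an adjusted p or an unadjusted p of 0.05 for Diab against Rev. Over all tested probes, 0% passed the adjusted p and 1.71% (642 probes) the unadjusted one. The Diab mean was higher than the Rev mean for 38 of the 49 probes, with a median of 0.16, against -0.023 over all tested probes. This rested on Rev 3, since without it the Diab mean was higher for 20 of the 49 and the median was -0.071. The median 95% interval of a difference reached 0.58 to either side, so that smaller differences between continuous poor control and its reversal could not be resolved for most of these probes.

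The 10 spots give the error between spots within an array. The SD over the unflagged spots of a probe within an array had a median of 0.062 log2 over the 49 tested probes and 12 arrays. Over all 50 probes, the median by probe was lowest for A_44_P677828 (0.034), A_44_P480605 (0.034) and Dlg4 (0.037). It was highest for Lhcgr (0.301, not tested), A_44_P773212 (0.253) and A_44_P914086 (0.153), which were not well above background on all arrays. As a coefficient of variation on the linear scale, the median over probes was 2.74% to 7.06% by array, while the error that Feature Extraction assigned to a spot was about 10% of its signal on every array.

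The spots of a probe spread more on the Norm arrays. Over the 44 probes that were well above background everywhere, the median SD over spots ran from 0.0825 to 0.0961 over the arrays in Norm, from 0.0449 to 0.0632 in Diab and from 0.0359 to 0.0636 in Rev. The group means were 0.0916 ± 0.0062 (SD, n = 4 arrays) in Norm, 0.0533 ± 0.0076 in Diab and 0.0493 ± 0.0121 in Rev. All Norm arrays lay above all others (exact permutation test, two-sided, p = 0.0286 for either group against Norm, the smallest that 4 against 4 can give, Benjamini-Hochberg p = 0.0429 over 3 comparisons), and Diab and Rev overlapped (exact permutation p = 0.629). Spots in the bottom part of the array (the last of 3 equal bands of rows) lay below the mean of their probe by 0.041 to 0.066 on the Norm arrays, and between 0.037 below and 0.00011 above it on the others. With that band left out, the values were 0.0762 in Norm, 0.0505 in Diab and 0.0435 in Rev, and the order of the groups was kept (exact permutation p = 0.0286 for either against Norm). Each group lay on a slide of its own, so for a property of the array its 4 arrays are not independent replicates of the group. These p-values compare arrays and not treatments, and slide and group cannot be told apart in this.

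The spread between the arrays of a group was much larger than that between the spots of an array. It holds the differences between rats together with those of labeling and hybridization, which were not measured apart. The residual SD between arrays of a group had a median of 0.408 log2 over the 49 probes (0.306 without Rev 3), and for the 44 probes detected everywhere it was 1.80 to 16.8 times the root mean square SD over spots, with a median of 6.36. The error of a mean of spots made up a median of 0.249% of the residual variance, and under 1% for 40 of the 44. The residual SD was lowest for Ptk2b and Med16 (both 0.159) and A_44_P959510 (0.171) and highest for A_44_P914086 (0.936), Fgf2 (0.864) and Nat1 (0.794). Fgf2 had a spot SD of 0.045, so that its spots within an array read alike while its Diab arrays differed. In A_44_P959510 and Nlrp3, which are dim, the error of a mean of spots came to 22.6% and 18.4% of the residual variance. Spot SDs were taken before quantile normalization and residual SDs after it, so these ratios and shares are approximate.

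Averaging over spots moved the residual SD little in the same probes. With a single spot in place of the mean, its median over the probes that could be tested was 0.406 to 0.439 for the 10 choices of spot, against 0.408 for the mean over spots. Different transcripts are measured by the rest of the array. The 37294 tested probes with 1 spot had a median residual SD of 0.319, below the 0.408 of the 10-spot probes, and without Rev 3 the values were 0.247 and 0.306. In the range of mean signal from 10 to 12, where 17 of the 49 probes lay, the medians were 0.345 for the probes with 1 spot and 0.473 for those with 10.

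Each spot was also used alone, as if the probe had been printed once. For Diab against Norm, 1 to 3 of the 43 to 49 probes tested then passed an adjusted p of 0.05. In the setting with a single spot per probe, 7.02% of all tested probes passed, so these counts are not read as a result about the 10-spot probes. None passed for Rev against Norm or Diab against Rev, where 0.673% and 0% of all tested probes passed with the mean over spots. A_44_P913360 passed with each of the 9 spots that could be tested, with a log2 difference of 0.87 to 0.95. P2rx2 passed with 5 of 10 spots, with -0.93 to -0.71, and Napepld with 3 of 10, with -0.73 to -0.48. In all, 6 probes passed with at least 1 spot, a count without a counterpart for probes printed once. Among the 6, A_44_P773212 passed with 4 of 10, against Norm values that were not well above background, so that no fold is read from it. Fgf2 was one of these, where a single spot gave 1.63 (adjusted p = 0.0489) with that spot flagged on Diab 1, Diab 2 and Rev 3, and its other spots gave 0.16 to 0.63. The SD of the log2 difference over the single spots of a probe had a median of 0.060.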

How the data were processed

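RNA from 12 rat retinas, 1 per array, was Cy3 labeled with random priming and hybridized, and the images were extracted by the authors (Agilent Feature Extraction, version 11.0.1.1). Each deposited file lists the processed signal of a spot, an intensity that is background subtracted and not normalized between arrays, with its error, the median signal and background intensities, and flags. The authors' quantile normalization is not in these files.

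Spots flagged as non-uniform or population outliers were left out (239 of the 10-spot probes over 12 arrays), log2 signals were averaged per probe and quantile normalized over 38804 probes. A probe counted as well above background when at least 50% of its unflagged spots were, and was tested when this held on 3 or more arrays and 2 or more arrays of every group had unflagged spots. One limma fit (version 3.58.1, R 4.3.3, 9 residual degrees of freedom) covered 3 groups. Its adjusted p is Benjamini-Hochberg over all tested probes. The 12 probes, those past the adjusted p and the next by unadjusted p for Diab against Norm, were named with array values. Scripts were tested on simulated data. Tables were written in R with data.table (version 1.17.8) and, for gene names and promoters, in Python 3.11.15 with pandas 2.3.3. The number of rats limits precision. Normexp used the median signal. The probes, lists and roles were chosen with earlier results of these data known. Leaving out the 3 dimmest arrays (Norm 3, Norm 4 and Rev 3), and the last of 3 bands of rows, was added after seeing the data.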

Additional observations from a re-analysis of the deposited data

Results flagged for a closer look

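In 16 of 147 sets of 4 arrays (49 probes in 3 groups) the farthest array was separated from its nearest neighbour by more of the range of the set than Dixon's critical value at 95%, where chance gives about 1 in 20 or 7.35 sets. The gap is given as a share of the range. In 12 sets Rev 3 was the lowest Rev array: LOC108352165 (0.993), Trim2 (0.962), A_44_P251706 (0.957), Ndfip2 (0.941), Cse1l (0.922), A_43_P13908 (0.897), Nat1 (0.889), Pdcd10 (0.874), Ndfip1 (0.868), Ppp2r2b (0.867), A_44_P895660 (0.856) and A_44_P913360 (0.8292). For A_44_P914086 it was the highest (0.882). Nat1, for example, read 4.55 on Rev 3 and 6.57 on the nearest Rev array. The remaining sets were Napepld in Norm, where Norm 3 was lowest (0.910), A_44_P895660 in Norm, where Norm 1 was highest (0.874), and A_43_P14978 in Diab, where Diab 2 was lowest (0.843).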

How the results depend on the processing

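The 2 probes that passed the adjusted p for Diab against Norm became 7 with scaling to the 75th percentile, all higher in Diab (against 18.8% of all tested probes), 1 with a single spot per probe (7.02%), 5 with only the 2 groups compared (13.9%), 4 with the replicate block (12.1%), 1 with the brightness covariate (2.02%), 5 without the 3 dimmest arrays (7.45%), and 1 to 6 when each array was left out in turn (1 without Norm 1, 3 or 4, Diab 2, 3 or 4, or Rev 1 or 4, where 1.86% to 6.66% of all tested probes passed, and 6 without Rev 3, where 21.6% did). For Rev against Norm, the 0 probes became 4 with 75th percentile scaling (7.69% of all tested probes), 1 with the brightness covariate (1.75%), 1 without the 3 dimmest arrays (1.18%) and 0 to 2 on leaving out single arrays (2 without Rev 3, 9.94%). At 2-fold with an unadjusted p, the 0 probes for Diab became 2 with 75th percentile scaling, 1 with the median over spots, 7 with the brightness covariate and 1 without the 3 dimmest arrays, and for Rev 2 with 75th percentile scaling and 8 with the brightness covariate. The share of all tested probes at 2-fold was taken in the main setting only (4.89% for Diab and 1.7% for Rev against Norm). These changed counts are therefore not read as a result about the 10-spot probes. Without the 3 dimmest arrays, only Norm 1 and Norm 2 stood for Norm. The median Diab difference moved to -0.289 with the brightness covariate, whose values did not overlap between Norm and Diab arrays. In all, 243 of these summary values kept their side of the threshold or stayed within the spread. The 75th percentile scaling moved the median of all probes from -0.037 to 0.14 for Diab and from -0.023 to 0.13 for Rev against Norm. The cause was not tested.

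Direction turned for differences that did not pass the test. For Diab against Rev, Napepld gave 0.021 with one spot, 0.013 without Diab 3 and 0.068 without Rev 2 (-0.24 to 0.068 over the arrays left out in turn). A_44_P959510 gave -0.077 with one spot, -0.033 without Diab 1 and -0.0044 without Rev 4 (-0.033 to 0.14). Odf2l gave -0.0056 without Rev 3 (-0.0056 to 0.41) and -0.0054 without the 3 dimmest arrays. The fitted value of A_44_P773212 was -0.054 without Rev 2 and ran to 0.25, but the probe was well above background on 1 Rev array only, so no direction is read from it. For Rev against Norm, Ptk2b gave -0.00059 without Norm 2, -0.036 without Rev 1 and -0.034 without Rev 4 (-0.036 to 0.13).

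Replicate numbers are positions on the slide. For each array the deviations from its group mean were taken over all tested probes. Between same-numbered arrays these deviations correlated with r over 0.1 in 7 of 12 pairs (-0.278 to 0.638). By the same deviations, 7 of 12 arrays correlated best with an array of their own number in another group. An effect of position was not tested. The labels do not say that the numbers pair the rats, and the main fit did not use them. With the replicate block, 4 of 49 probes passed for Diab against Norm, against 12.1% of all tested probes. The slide as a block could not be fitted, since 0 slides held more than 1 group. Dim probes are limited by signal over background on the Norm arrays.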
